A study of Mus musculus with 6 samples.

Results

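The genes described here encode 8 surface proteins that are used to sort cells of the mouse mammary gland by antibody: *Cd24a*, *Epcam*, *Prom1*, *Ly6a*, *Cd44*, *Kit*, *Cd14* and *Thy1*. They were taken by name, and a probe set stood for a gene where the platform annotation gave that symbol alone. This found 14 probe sets for 7 of the 8 genes, out of 18193 genes named on the array. *Ly6a*, the gene of Sca-1, was not listed under a symbol of its own and was not analysed here. All 7 had a probe set that reached a signal of 100 on 3 or more arrays, the filter used, and they were tested among 12518 genes.

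The samples were 3 mammary tumors of acinar histology that grew in *K14-cre*; *Apc CKO/+* female mice, and 3 control mammary glands of *cre*-negative mice matched for age, with 1 Affymetrix mouse array each. In the tumor mice, Cre under the keratin 14 promoter, which is active in basal cells and in progenitors of both mammary lineages, deletes an exon of 1 conditional *Apc* allele. The study gives these tumors a deleted allele and a truncating mutation in the remaining one, in a mixed strain background. The sources used here give neither the *Apc* genotype of the control mice nor the ages of the 6 animals, and do not say that each sample came from a separate animal, so that the p-values measure the spread between these samples. *Apc* had signals of 1923, 1526 and 2006 in tumors and 1922, 2077 and 2149 in control glands (log2 fold change −0.18, limma adjusted p = 0.534). Where its probe set lies relative to the deleted exon was not analysed here, so that this does not check the labels.

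To isolate mammary cells, a gland is dissociated, leukocytes, endothelium and red cells are set aside by their own surface proteins, and the remainder is separated by graded levels of a few epithelial proteins. CD24 and EpCAM separate luminal cells, which stain brightly, from basal cells, which stain more weakly, and from stroma. Prominin-1, the product of *Prom1*, and Sca-1 are used to mark hormone-sensing luminal cells. KIT and CD14 are used for luminal progenitors, CD44 for cells of basal or stem-like type, and Thy-1 for basal and stromal cells. Most of these proteins also lie on other cells of the gland: KIT on mast cells, CD14 on monocytes and macrophages, CD44 on leukocytes, and Thy-1 on T cells and fibroblasts. The arrays measured transcripts of whole tissue and not surface protein. In such bulk samples fewer cells of a type and less RNA per cell cannot be told apart.

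The start regions of *Epcam*, *Prom1* and *Cd44*, which were higher in tumors, are shown because these genes moved the same way. *Cd24a* was higher too, and its start region was not analysed here, nor were those of *Ly6a*, *Cd14* and *Thy1*. The RefSeq windows hold 300 bases (250 before and 50 after each start, build GRCm38.p6), and that of *Kit*, which was not called, was searched for the same motifs and is not printed. *Prom1* has 2 starts there. Capitals mark matches, on either strand, to the core of TCF/LEF sites (CTTTGA), bound by the partners of β-catenin, to the E-box CAGGTG, bound by the Snail and ZEB repressors, and to the GC box GGGCGG, bound by Sp factors. No motif letters overlapped another motif.
Epcam, chr17:87635729-87636028, plus strand: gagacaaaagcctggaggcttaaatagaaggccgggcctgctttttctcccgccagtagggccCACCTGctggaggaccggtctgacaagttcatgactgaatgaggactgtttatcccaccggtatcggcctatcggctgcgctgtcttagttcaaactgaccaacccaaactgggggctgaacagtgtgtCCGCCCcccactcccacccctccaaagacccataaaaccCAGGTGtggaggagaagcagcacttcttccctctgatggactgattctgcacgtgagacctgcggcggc
Prom1, first start, chr5:44101687-44101986, minus strand: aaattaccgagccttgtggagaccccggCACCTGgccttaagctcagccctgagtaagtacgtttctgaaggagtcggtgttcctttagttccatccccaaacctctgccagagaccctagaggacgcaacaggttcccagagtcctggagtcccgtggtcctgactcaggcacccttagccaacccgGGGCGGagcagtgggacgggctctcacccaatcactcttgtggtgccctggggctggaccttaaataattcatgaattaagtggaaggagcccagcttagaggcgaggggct
Prom1, second start, chr5:44094719-44095018, minus strand: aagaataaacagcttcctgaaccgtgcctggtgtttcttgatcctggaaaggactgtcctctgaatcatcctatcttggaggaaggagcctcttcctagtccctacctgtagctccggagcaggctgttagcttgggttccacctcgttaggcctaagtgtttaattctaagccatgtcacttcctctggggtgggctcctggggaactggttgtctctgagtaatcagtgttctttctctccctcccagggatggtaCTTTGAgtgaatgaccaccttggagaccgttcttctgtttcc
Cd44, chr2:102901616-102901915, minus strand: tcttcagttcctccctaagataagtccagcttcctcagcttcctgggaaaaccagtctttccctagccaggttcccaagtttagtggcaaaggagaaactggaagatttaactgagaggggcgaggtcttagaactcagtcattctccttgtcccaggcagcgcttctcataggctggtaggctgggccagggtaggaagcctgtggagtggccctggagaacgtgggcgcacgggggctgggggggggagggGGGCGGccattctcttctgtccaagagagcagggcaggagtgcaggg

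The window of *Epcam* held 2 E-boxes, whose first bases lie 187 and 19 bases before the start, and 1 GC box 58 bases before it. The first start of *Prom1* had an E-box 222 bases and a GC box 62 bases before it, and the second start had a TCF/LEF core 9 bases into the transcript. *Cd44* had a GC box at base 4 of the transcript, and *Kit* had a GC box in the windows of both its starts. These *Kit* windows overlap, and the match is the same site in both. Among 32851 RefSeq windows of this length, 16% held the TCF/LEF core, 20.2% the E-box and 35.7% the GC box, which is the background against which the matches stand.

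Of the 7 sorting genes 4 passed the test as higher in tumors, 1 as lower, and 2 did not pass it. *Prom1*, *Epcam*, *Cd24a* and *Cd44* were higher, by 2.51 to 6.51 times. *Thy1* was lower, and *Kit* and *Cd14* had groups that overlapped. A gene was called at an adjusted p under 0.05 (limma, Benjamini-Hochberg over all genes, no fold limit), and by that rule 16.3% of all genes tested were higher and 16.8% lower, 33.1% in all, beside 5 of the 7 sorting genes. With equal array medians as the scaling, 3003 genes were higher and 1676 lower, against 2045 and 2098 with the deposited scaling. The median log2 fold change was 1.33 over the 7 genes and 0.07 over all genes tested.

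**Figure D1:**
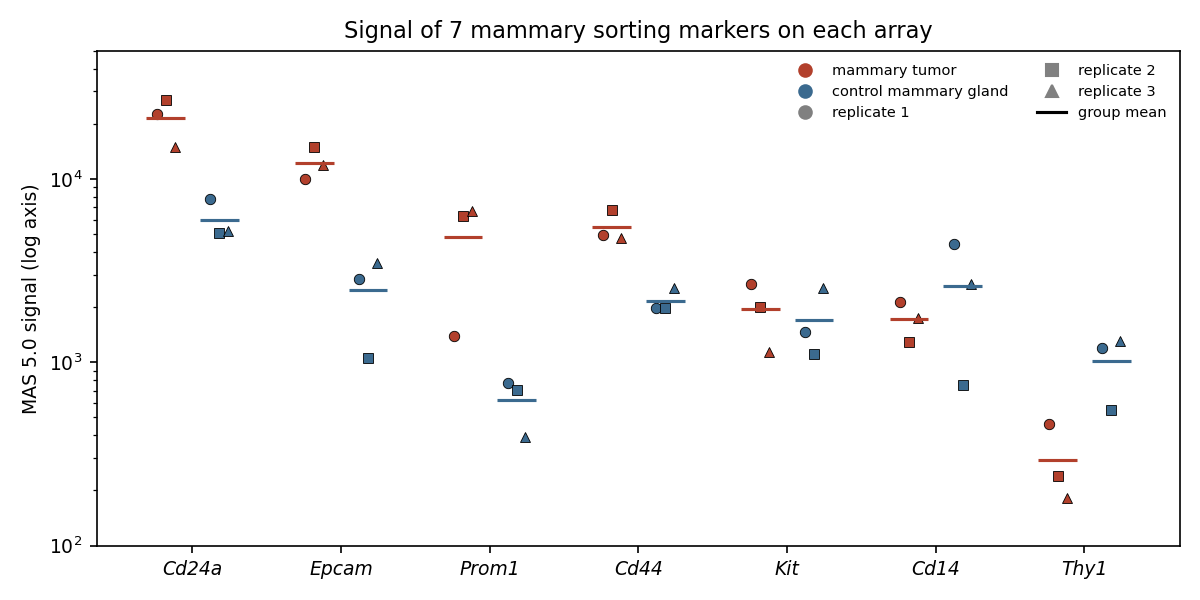
MAS 5.0 signal (log axis) of 7 sorting genes in 3 mammary tumors (left, red) and 3 control mammary glands (right, blue), 1 point per array, with a bar at each group's mean. The groups are separate for *Cd24a*, *Epcam*, *Prom1*, *Cd44* and *Thy1*, and overlap for *Kit* and *Cd14*.

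*Cd24a* encodes a small, heavily glycosylated protein held in the membrane by a lipid anchor. Its brightest probe set had signals of 22531, 27009 and 14952 in tumors, against 7791, 5044 and 5181 in control glands. Every tumor lay above every control gland, which held for 27.1% of all genes tested. The mean was 21497 ± 6095 in tumors and 6005 ± 1548 in control glands (SD, n = 3 each). The log2 fold change was 1.83 (standard error 0.30, limma adjusted p = 0.00431), a 3.55-fold difference. Tumor replicate 3 was the lowest of the tumors.

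The other probe sets of *Cd24a* gave the same direction. The probe set 1416034_at had 11837, 10926 and 4518 in tumors and 2444.5, 1705 and 1777 in control glands, a log2 fold change of 2.10 (limma adjusted p = 0.00697 over 26967 probe sets). The probe set 1437502_x_at, whose suffix marks possible cross-hybridization, had 11038, 9587.5 and 7100 in tumors and 2975, 1738 and 2076 in control glands, a log2 fold change of 2.04 (limma adjusted p = 0.0023 over the same probe sets). Over all probe sets tested 11.7% were higher in tumors and 14.6% lower.

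*Epcam* encodes an adhesion molecule that is found on nearly all simple epithelia and is absent from stroma. It had 10002, 14862 and 11890.4 in tumors, against 2858, 1058 and 3485.5 in control glands. The 3 tumors lay close together, within 1.49 times of each other, whereas the control glands spanned 3.29 times, with control replicate 2 the lowest. The mean was 12252 ± 2450 in tumors and 2467 ± 1260 in control glands (SD, n = 3 each), a log2 fold change of 2.46 (standard error 0.45, limma adjusted p = 0.00638). A second probe set, 1447899_x_at, had 1200.2, 1144.5 and 1374 in tumors and 418, 240.1 and 483 in control glands, a log2 fold change of 1.76 (limma adjusted p = 0.00498 over all probe sets). In it, too, control replicate 2 was the lowest and the groups did not overlap.

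*Prom1* encodes prominin-1 (CD133), a membrane protein of cell protrusions. It had signals of 1396, 6288.5 and 6701 in tumors, against 771, 706 and 391 in control glands. Tumor replicates 2 and 3 were far above the control glands, while tumor replicate 1 was the lowest of the tumors and stood nearest to them. Among the 7 genes *Prom1* had both the largest increase and the widest spread between tumors, 4.8 times between the lowest and the highest. The mean was 4795 ± 2951 in tumors and 623 ± 204 in control glands (SD, n = 3 each), a log2 fold change of 2.70 (standard error 0.62, limma adjusted p = 0.015). Of all genes tested 1.44% had a larger log2 fold change. The gene was no longer called without tumor replicate 2 (limma adjusted p = 0.0567), without control replicate 3 (0.0507), when low signals were not filtered (0.0768) and under the methods' t-test. Over all alternatives the adjusted p ran from 0.00177 to 0.274.

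*Cd44* encodes the main receptor for hyaluronan, a polysaccharide of the matrix, and is also known as a target of TCF/β-catenin signaling in the intestine. It had 4922, 6753 and 4738 in tumors, against 1989, 1974 and 2549.6 in control glands. Both groups were tight and separate. The mean was 5471 ± 1114 in tumors and 2171 ± 328 in control glands (SD, n = 3 each). The log2 fold change was 1.33 (standard error 0.24, limma adjusted p = 0.0058), the smallest of the 4 increases and the one with the smallest error. The transcript is spliced into a standard form and variant forms, and the probe sets were not assigned to them here.

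Of the other probe sets of *Cd44*, 2 were called and 1 could not be tested. The probe set 1434376_at had 3741, 5100.2 and 3189.5 in tumors and 1740, 1490.2 and 2213 in control glands, with a log2 fold change of 1.14 (limma adjusted p = 0.0198 over all probe sets). The probe set 1452483_a_at had 632, 567 and 447 in tumors and 199.9, 153.4 and 316.5 in control glands, with 1.35 (limma adjusted p = 0.0172 over all probe sets). In both, every tumor lay above every control gland. The probe set 1443265_at was below 7 on all 6 arrays, did not pass the filter and was the 1 of 14 probe sets of the sorting genes that was not tested.

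*Kit* encodes the receptor tyrosine kinase for stem cell factor. It had 2689, 2008 and 1132 in tumors, against 1454, 1104 and 2548 in control glands. The groups overlapped almost fully. The mean was 1943 ± 781 in tumors and 1702 ± 753 in control glands (SD, n = 3 each). The log2 fold change was 0.19 (standard error 0.42, limma adjusted p = 0.752), with a 95% interval from −0.78 to 1.17, which spans 0. The second probe set, 1415900_a_at, had 545, 299 and 193.5 in tumors and 362, 171 and 553 in control glands, a log2 fold change of −0.04 (limma adjusted p = 0.963 over all probe sets).

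*Cd14* encodes a lipid-anchored coreceptor that hands bacterial lipopolysaccharide to TLR4. It had 2145, 1297 and 1748 in tumors, against 4392, 752 and 2660.1 in control glands. All 3 tumors fell between the lowest and the highest control gland, and the control glands differed among themselves by 5.84 times, the widest range of the 7 genes. The mean was 1730.2 ± 424 in tumors and 2601 ± 1820.5 in control glands (SD, n = 3 each). The log2 fold change was −0.28 (standard error 0.61, limma adjusted p = 0.748), with a 95% interval from −1.70 to 1.14. Without control replicate 1 it was 0.26 (limma adjusted p = 0.758), and without control replicate 2 it was −1.01 (limma adjusted p = 0.073).

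*Thy1* encodes Thy-1, a small lipid-anchored protein of the immunoglobulin family. It had 458, 240.1 and 183 in tumors, against 1196, 550.2 and 1307 in control glands. Every tumor lay below every control gland, which held for 23.1% of all genes tested. The mean was 294 ± 145 in tumors and 1018 ± 409 in control glands (SD, n = 3 each), a log2 fold change of −1.81 (standard error 0.45, limma adjusted p = 0.0204). The gene was no longer called without tumor replicate 2 or 3 (limma adjusted p = 0.0689 and 0.0636), without control replicate 1 or 3 (0.061 and 0.0689), when low signals were not filtered (0.0847) and under the methods' t-test. Over all alternatives the adjusted p ran from 0.0128 to 0.212.

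**Figure D2:**
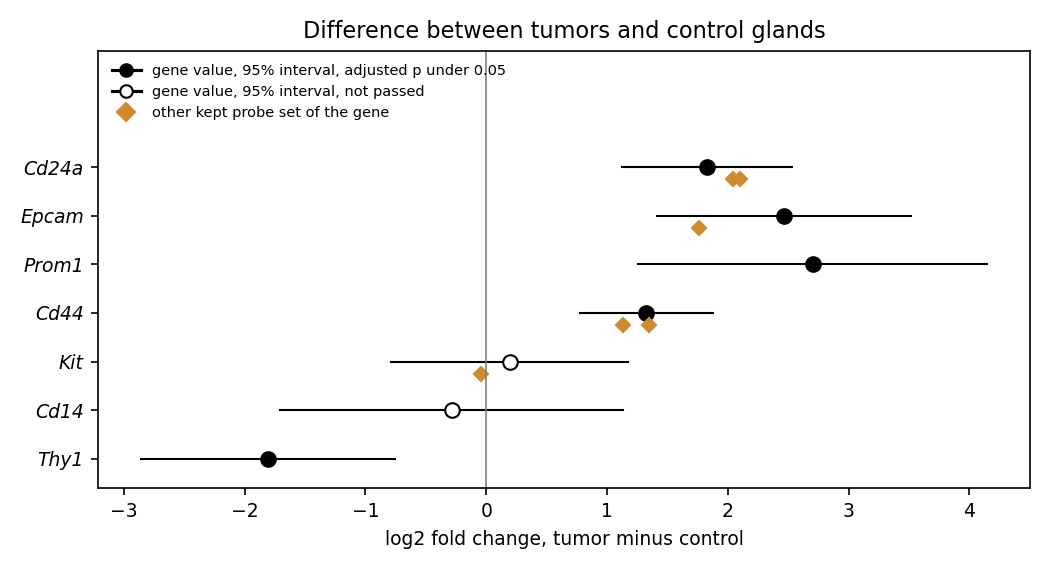
Differences between tumors and control glands (x axis, log2 fold change) for 7 sorting genes (y axis). Circles are the gene values with the 95% interval from limma, filled where the adjusted p is under 0.05, and diamonds are the other kept probe sets of the same gene, which lie at 2.04 and 2.10 for *Cd24a*, 1.76 for *Epcam*, 1.14 and 1.35 for *Cd44* and −0.04 for *Kit*.

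The control glands were not alike in these genes. Control replicate 2 was the lowest control for 6 of the 7 sorting genes, and *Prom1*, lowest in control replicate 3, was the exception. The summed signal of 16 pan-epithelial genes, such as the keratins of simple epithelium and the tight junction genes, was 87910, 99621 and 115197 in tumor replicates 1 to 3 and 23419, 12742 and 28549 in control replicates 1 to 3, so that control replicate 2 was also the lowest in them. The summed signal of 8 skeletal muscle genes was 40043, 1901 and 555 in tumor replicates 1 to 3 and 7900.3, 184824 and 68406 in control replicates 1 to 3, so that the same gland was the highest in muscle genes. Without control replicate 2 the same counts of 4 higher and 1 lower sorting genes were obtained, *Epcam* had a log2 fold change of 1.94 and *Kit* one of −0.07. Among the tumors, replicate 3 was the lowest for 4 of the 7 genes. The part of tissue makeup in these differences was not tested.

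Pan-epithelial genes were higher in tumors as a group. Of 16 tested, 15 were higher and *Elf3* did not pass (limma adjusted p = 0.876), with a median log2 fold change of 2.36. Their summed signal lay between 87910 and 115197 in tumors and between 12742 and 28549 in control glands. *Cldn3*, *Cldn7* and *Esrp2*, genes of tight junctions and of epithelial splicing, had 3.35, 3.21 and 3.17 (limma adjusted p = 0.00136, 0.00278 and 0.00231).

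The sorting genes were then set against these 16 genes on the same array. The log2 signal of each gene minus the mean log2 signal of the 16 genes was computed per array, and tumors and control glands were compared. For *Epcam*, *Prom1* and *Cd24a* this difference was 0.18, 0.42 and −0.45 (tumor minus control), and the groups overlapped (2-sided exact permutation test, p = 0.6, 0.6 and 0.4). For *Cd44* it was −0.96, for *Kit* −2.09, for *Cd14* −2.57 and for *Thy1* −4.09, and for these 4 genes the 3 tumors were all below the 3 control glands (2-sided exact permutation test, p = 0.1 for each, the smallest that 3 against 3 allows). A value of this kind shows unequal change and not that either side stayed level. The mean log2 signal of the 16 genes was 11.70, 11.63 and 11.97 in tumor replicates 1 to 3. In control replicates 1 to 3 it was 9.77, 8.68 and 10.00. A gene of level signal thus also has its tumors below the control glands by this measure. The share of all genes that did so was not computed, so the separation cannot be read as particular to these 4 genes. For *Cd44* every tumor was thus above the control glands by signal and below them relative to the epithelial genes.

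Each luminal class for which the sorting genes are used was also read by a list of its own markers. Of 6 hormone-sensing luminal genes tested, 6 were lower (limma), with a median log2 fold change of −2.30. *Cited1* and *Tnfsf11* did not pass the filter on low signals. *Wnt4* and *Tbx3* reached the filter's signal in no tumor and so passed only through the control glands, which leaves them only a lower direction. *Foxa1*, a transcription factor of hormone-sensing cells, had −4.52 (limma adjusted p = 0.000126), *Pgr*, the progesterone receptor gene, −2.69 (0.0114) and *Wnt4* −2.34 (0.000448, with 2 tumors below the floor of 50 used for logs). *Prom1*, used for the same class, was higher in the same tumors. Of 10 genes of luminal progenitors and alveolar cells, the class of *Kit* and *Cd14*, 8 did not pass, 1 was higher and 1 lower, with a median of 1.81. *Wfdc18*, a secreted protein gene, had 2.42 (limma adjusted p = 0.0187), and *Ltf*, which encodes lactoferrin, 0.05 (0.977). At an unadjusted p under 0.05 by limma, 3 of the 10 were higher and 2 lower. Of these, *Elf5* at 2.14 (limma adjusted p = 0.104) and *Lcn2* at 1.86 (0.102) had every tumor above every control gland. *Mfge8* at −1.49 (limma adjusted p = 0.0595) had every tumor below. *Aldh1a3*, a retinaldehyde dehydrogenase gene and a marker of luminal progenitors, had 48.1, 21.5 and 6.4 in tumors and 465, 152.7 and 874 in control glands. Its tumors all lay below the floor of 50 used for logs, so that the log2 fold change of −2.99 (limma adjusted p = 0.00765) is a bound and the decrease is at least of this size. *Aldh1a3*, the 1 lower gene of this list, thus also passed the filter only through the control glands, which leaves it only a lower direction. The summed signal of this list lay between 109424 and 170119 in tumors, and was 94690 and 97217 in control replicates 1 and 3 and 14412.5 in control replicate 2, the gland in which *Cd14* and *Kit* were also lowest.

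Of 10 basal and myoepithelial genes, 6 did not pass, 3 were higher and 1 lower, with a median of 0.50. *Trp63*, the p63 gene, had 1.60 (limma adjusted p = 0.0325), *Cnn1*, a contractile protein gene, 1.26 (0.0269), *Oxtr*, the oxytocin receptor gene, −2.76 (0.00465) and *Myh11* 0.40 (0.513). *Thy1*, also used for basal cells, was lower in the same arrays.

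Markers of the other cells that carry these proteins were lower in tumors or did not pass. Of 8 leukocyte genes, 5 were lower, with a summed signal between 7229 and 8910 in tumors and between 11172 and 32936 in control glands, and *Ptprc*, the CD45 gene, had −2.25 (limma adjusted p = 0.0193). *Lcp1*, which encodes an actin-bundling protein of leukocytes, went the other way without being called. It had 3327, 4540 and 6350.5 in tumors and 3270.4, 1856.5 and 1801 in control glands, every tumor above every control gland (log2 fold change 1.04, limma adjusted p = 0.0505). Of 10 macrophage and monocyte genes, 4 were lower, with a summed signal between 6452 and 12653 in tumors and between 21367 and 35154 in control glands. Control replicate 1, the highest in *Cd14*, was also the highest in both lists. *Cd163* had −4.09 (limma adjusted p = 0.00103) and *C1qb*, furthest from passing, −0.25 (0.584). Among T cell genes 3 of 10 could be tested, and 1 of these was lower. *Cd3e*, *Cd3g*, *Cd2*, *Cd4* and *Cd5*, which define T cells or their subsets, did not pass the filter in these arrays. *Il7r* had −3.25 (limma adjusted p = 0.00089), and *Cd8a* −0.13 (0.731). Their summed signal lay between 215 and 400.4 in tumors and between 970.0 and 2580.4 in control glands.

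Of 8 mast cell genes listed 5 were tested, and 4 of these were lower. *Fcer1a*, *Ms4a2* and *Hdc* did not pass the filter on low signals. *Cpa3*, *Mcpt4* and *Tpsb2* reached the filter's signal in no tumor and so passed only through the control glands. A gene that passes in this way can only be lower in tumors, so that their direction is not a separate result. *Cpa3*, a carboxypeptidase of mast cell granules, had 81.8, 91.7 and 10.9 in tumors and 756, 803 and 644 in control glands (log2 fold change −3.34, limma adjusted p = 0.000324), and *Mcpt4*, a mast cell chymase, had 6.7, 9.7 and 6.1 in tumors, below the floor, and 207, 334 and 276 in control glands (log2 fold change −2.42 with tumors at the floor, a bound, limma adjusted p = 0.000571). *Kit* was not called in the same arrays. Of 10 fibroblast genes 9 were lower, with a median of −3.39 and a summed signal between 2907 and 16568 in tumors and between 66361 and 85495 in control glands. *Dpt*, *Lum* and *Pdgfra* led this list at −5.71, −4.57 and −4.18 (limma adjusted p = 0.00256, 0.00497 and 0.000412). Of 9 endothelial genes 7 were lower, with *Vwf* at −3.88 (limma adjusted p = 0.000175), and of 8 adipocyte genes all 8, with *Cidec* at −7.35 (limma adjusted p = 0.000126). *Vwf*, like *Cpa3*, reached the filter's signal in no tumor, so it passed only through the control glands and could only be lower. None of the genes tested in the lists of T cells, macrophages, mast cells, endothelium, fibroblasts and adipocytes was higher in tumors by limma, at an unadjusted p under 0.05 or by the methods' t-test, and in the leukocyte list *Lcp1* was higher at an unadjusted p of 0.0168. *Cd163*, *Cpa3* and *Vwf* lay below the floor of 50 in 1 tumor and *Cidec* in 2, which makes their fold changes smaller in size. *Thy1* was lower in the same tumors, and the part of these cells in its fall was not tested.

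**Figure D3:**
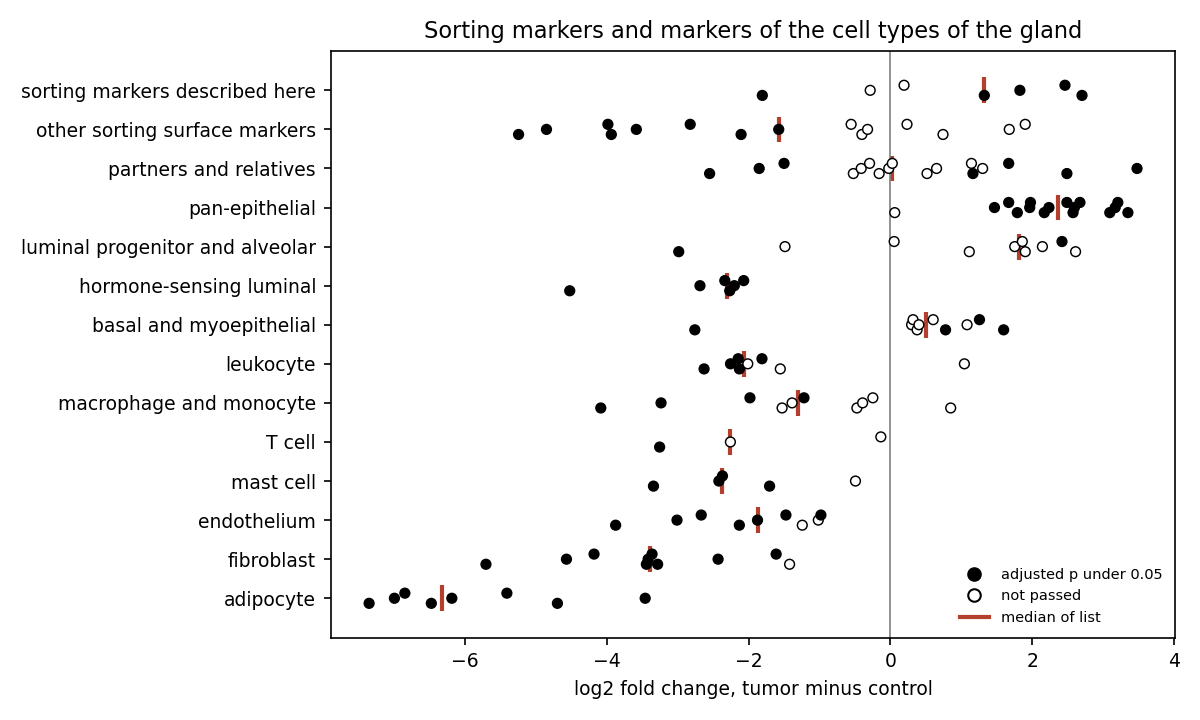
Differences between tumors and control glands (x axis, log2 fold change) by gene list (rows), 1 point per gene, filled where the limma adjusted p is under 0.05. Bars stand at the list medians, 1.33 for the sorting genes, 2.36 for pan-epithelial genes, −2.30 for hormone-sensing luminal genes and −3.39 for fibroblast genes.

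The genes of other surface proteins used to sort mammary cells were lower in tumors or did not pass. Of 18 such genes 15 could be tested. Of these 8 were lower and 7 did not pass, and none was higher by limma or by the methods' t-test, though 2 were higher at an unadjusted p under 0.05. Their median log2 fold change was −1.57. Large decreases were those of *Cd36*, a fatty acid receptor that adipocytes and endothelium also carry, at −5.24 (limma adjusted p = 0.00157), of *Mme*, which encodes the peptidase CD10, at −4.85 (0.00159, with 1 tumor below the floor of 50). *Tspan8*, a tetraspanin gene, had 35, 23.3 and 3.9 in tumors and 1035, 878 and 545 in control glands. All 3 tumors lay below the floor, so that its log2 fold change of −3.98 (limma adjusted p = 0.000175) is a bound and the decrease is at least of this size. *Tspan8* thus passed the filter only through the control glands and could only be lower, so that its direction is not a separate result. *Abcg2*, a drug efflux pump gene, had 0.23 (0.599).

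The integrins with which CD24 is most often paired were not called. *Itga6*, the CD49f gene, had 7328.5, 6998 and 6087 in tumors, against 3917, 3205 and 5306 in control glands. Every tumor lay above every control gland, at a log2 fold change of 0.74 (limma adjusted p = 0.0546). *Itgb1*, the CD29 gene, had 2179, 1708 and 1148 in tumors, against 1401, 3537 and 2725 in control glands, which overlapped (log2 fold change −0.55, limma adjusted p = 0.321). *Itgb3*, the CD61 gene, and *Itga2*, the CD49b gene, did not pass the filter on low signals.

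Ligands, partners and relatives of the sorting proteins had no common direction. Of 17 tested, 10 did not pass, 4 were higher and 3 lower, with a median log2 fold change of 0.03. Among the lower genes, *Selp* and *Siglecg* reached the filter's signal in no tumor. They passed only through the control glands and could only be lower. Among the higher genes, *Spint1* and *Spint2* are also in the pan-epithelial list. *Hmmr*, which encodes another receptor of hyaluronan and also acts in mitosis, had 3.48 (limma adjusted p = 0.000258) beside the 1.33 of *Cd44*. A list of 7 proliferation genes, all 7 of them higher by limma, had a median of 3.75 in the same arrays. *Bub1*, whose own value is this median, reached the filter's signal in no control gland. It passed only through the tumors and could only be higher. *Spint2*, a protease inhibitor gene of epithelia, had 2.49 (0.00131), and *Selp*, which encodes P-selectin, a receptor that binds CD24, had −2.55 (0.00128, with 1 tumor below the floor). *Tlr4*, the receptor to which CD14 delivers lipopolysaccharide, had 542, 497 and 322 in tumors and 597, 334 and 456 in control glands (log2 fold change −0.02, limma adjusted p = 0.962). *Kitl*, the ligand of KIT, had 5806, 4689 and 2940.2 in tumors and 6139.5, 5363 and 7207.5 in control glands, which overlapped (log2 fold change −0.52, limma adjusted p = 0.212).

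The genes whose log2 signals over the 6 arrays were most like those of each sorting gene are given as a description, since the arrays fall into 2 groups of 3 and genes that separate these groups tend to correlate. They were *Ccdc90b* and *Ran* for *Cd24a* (Pearson r = 0.998 and 0.996), *Ngrn* and *Dkc1* for *Epcam* (0.998 and 0.998), *Fgfbp1* and *Mrps5* for *Prom1* (0.995 and 0.995), *Lin54* and *Nt5c3b* for *Cd44* (0.998 and 0.997) and *Lrch1* and *Mical1* for *Thy1* (0.998 and 0.998). For *Kit* they were *Rad1* and *Krt1* (0.978 and 0.975), and for *Cd14* *Cacng4* and *Six5* (0.987 and 0.983). An r above 0.95 was reached by 521 genes with *Cd44*, 504 with *Epcam*, 362 with *Cd24a*, 178 with *Prom1*, 132 with *Thy1*, 19 with *Cd14* and 9 with *Kit*.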

How the data were processed

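Total RNA of 3 mammary tumors and 3 control mammary glands was hybridized to GeneChip M430 2.0 arrays. The deposited values are intensity signals on a linear scale, made by the authors with MAS 5.0 and scaled to a target of 500 per array. The trimmed mean was 500 on all 6. Between 54.3% and 56.6% of probe sets reached 100 in tumors and between 55.8% and 61.5% in control glands. The number of arrays limits the precision.

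Control probe sets (64 of 45101) were left out, and 34945 had 1 gene symbol. After a floor of 50, log2 values were tested (limma 3.58.1, R 4.3.3, 2-sided). The 26967 probe sets that passed the filter were fitted once, and once the brightest for each of 12518 genes. Simulated data served to test the steps. The members and lists were chosen with earlier results of these data known. Named were all sorting genes and probe sets, up to 3 called genes of each list with the largest change and the one furthest from passing, and the 2 genes most like each sorting gene. *Itga6*, *Itgb1*, *Itgb3*, *Itga2*, *Kitl*, *Ptprc*, *Lcp1*, *Elf5*, *Lcn2*, *Mfge8*, *Tpsb2*, *Tbx3*, *Siglecg*, *Spint1*, *Bub1* and *Apc* were chosen otherwise, most after their values were seen. So were the T cell, mast cell and hormone-sensing genes that were not tested.

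Alternatives changed the floor (16, 100), the offset, the scaling, the filter (none, 200), the choice of probe sets, the variance trend, the replicate block, the fold limit (2) and the arrays (each left out). The methods' t-test required a statistic of 4.5 and a ratio of means of 2 or more.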

Additional observations from a re-analysis of the deposited data

How the results depend on the processing

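Of the 7 sorting genes, *Epcam* and *Cd44* were called in all 19 alternatives and *Cd24a* in 18 of 19, lost only under the methods' t-test. *Prom1* was called in 15 and *Thy1* in 13, with no change of sign. Over the arrays left out, 3 to 4 sorting genes were higher and 0 to 1 lower, and 1241 to 1545 of all genes were higher and 1151 to 2012 lower, both lowest without control replicate 3. Higher genes also numbered 1289 and 1273 without tumor replicates 2 and 3, and lower genes 1377 and 1354 without control replicates 1 and 2. With low signals unfiltered 0 sorting genes were lower by limma (1 at an unadjusted p under 0.05). The methods' t-test called 2 sorting genes higher, 0 lower, 685 genes higher and 920 lower. After Benjamini-Hochberg adjustment it called 140 genes and 0 sorting genes, 3 of which had an unadjusted p under 0.05. A fold limit of 2 left 1329 genes higher. Over the arrays left out *Kit* had −0.085 (without tumor replicate 1) to 0.54 and *Cd14* −1.01 to 0.26 (without control replicate 1), and *Kit* had −0.07 without control replicate 2. Relative to the pan-epithelial genes, *Epcam* had −0.04 without tumor replicate 2 and *Prom1* −0.14 without control replicate 3. Equal array medians moved the median of all genes by 0.24 on the log2 scale, and the sorting genes with it (*Epcam* 2.70, *Thy1* −1.57). Where no cause is named, the cause was not tested.

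The replicate numbers were not taken as pairs. The deviations of same-numbered arrays from their group means correlated at −0.222, 0.0206 and 0.0379, and those of differently numbered arrays at −0.161 to 0.134. With 3 arrays per group these values cannot show whether the samples were paired. With the replicate block 4 sorting genes were higher and 1 lower, as without it, and 1630 genes were higher and 1860 lower.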
